A study of Mus musculus with 6 samples.

Results

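MicroRNAs (miRNAs) numbered 670 to 720, other than miR-673 and miR-679, had 48 assays among the 750 miRNA assays of a TaqMan OpenArray rodent panel, which was run on mouse prefrontal cortex. These members were taken by the number in the assay name, whatever its species prefix, strand or pool, and they cover 40 miRNA numbers. Of the 48 names, 41 begin with mmu (mouse), 6 with hsa (human) and 1 with rno (rat), and # stands for the minor strand. Pool is the letter that ends an assay's identifier, A for 16 members and B for 32. The samples were whole prefrontal cortices of untreated male mice aged 5 months, 3 wild-type C57BL/6J controls and 3 mice of the genotype BTBR T+ Itpr3tf/J, each listed as its own replicate, with 3 cortices per group in the protocol. BTBR is an inbred strain studied for its low sociability. The labels enter C57BL/6J as the strain background of all 6 samples, BTBR included. Levels were read as cycle thresholds, that is, how many PCR cycles an assay needs to cross a set signal, so that a lower threshold stands for more RNA, and 40 was read as undetermined. In bulk tissue, fewer cells of a type and less RNA per cell cannot be told apart.

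A miRNA is cut from a hairpin transcript, and 1 or both of its arms are loaded into an Argonaute protein, where the seed near the 5′ end pairs with target messenger RNAs. Many miRNAs of this number range were first cloned from mouse tissue, and a large share of hairpins lie within other genes and are made from the transcript of that host. Some entries of the range have other origins. The best known is miR-720, which is now regarded as a fragment of a transfer RNA.

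Mature sequences from RefSeq (mouse build GRCm38.p6) were found for 33 of the 40 numbers and for 8 of the 10 numbers that were detected in every mouse. The sequences of those 8 are shown because all strain comparisons below rest on them, together with miR-685 and miR-720. Capitals mark the seed, bases 2 to 8. Most assay names give no arm and the sources used here do not state it, so each arm that RefSeq lists is shown.
mmu-miR-674-5p: gCACUGAGaugggaguggugua
mmu-miR-674-3p: cACAGCUCccaucucagaacaa
mmu-miR-708-5p: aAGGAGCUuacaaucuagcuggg
mmu-miR-708-3p: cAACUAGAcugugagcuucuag
mmu-miR-671-5p: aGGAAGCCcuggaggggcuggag
mmu-miR-671-3p: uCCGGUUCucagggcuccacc
mmu-miR-672-5p: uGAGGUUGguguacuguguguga
mmu-miR-672-3p: aCACACAGucacuaucuucga
mmu-miR-676-3p: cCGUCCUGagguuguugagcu
mmu-miR-700-5p: uAAGGCUCcuuccugugcuugc
mmu-miR-700-3p: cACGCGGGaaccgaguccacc
mmu-miR-702-5p: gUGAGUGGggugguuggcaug
mmu-miR-702-3p: uGCCCACCcuuuaccccgcucc
mmu-miR-706: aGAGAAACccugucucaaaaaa

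These 14 sequences had 14 different seeds. Their GC content ran from 36.4% for miR-706 to 71.4% for miR-700-3p, with a median of 54.5%, close to the 52.2% of 1674 mature mouse sequences in RefSeq. By position, 7 of the 8 numbers lay within the span of a protein-coding gene, as did 24 of all 33 members' numbers with a sequence (72.7%) and 65.6% of 1058 RefSeq miRNA loci. The strands of gene and miRNA were not compared, so a span alone does not show a host. The genes were Tenm4 for miR-708 (5p arm at chr7:96249450-96249472, + strand), Chpf2 for miR-671 (chr5:24592132-24592154, +), Nexmif for miR-672 (chrX:104116228-104116250, -) and Eda for miR-676 (3p arm at chrX:100381151-100381171, +). Rcan3 held miR-700 (chr4:135416601-135416622, -), Plod3 held miR-702 (chr5:136991442-136991462, +) and Wnk1 held miR-706 (chr6:120034290-120034311, -). Tenm4 encodes a teneurin, a cell adhesion protein of developing neurons, and Nexmif is a neuronal gene whose loss causes X-linked intellectual disability. miR-674 (chr2:117185151-117185172, +) lay in no gene span other than its own.

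A threshold from 10 to under 40 was counted as detected. By that rule 12 members (25%) were detected in all 6 mice, 8 (16.7%) in some mice and 28 (58.3%) in none, against 31.6%, 30% and 38.4% of all 750 assays. The 12 were miR-674 and miR-674#, miR-671-3p and miR-671-5p, miR-672, miR-676, miR-685, miR-700, miR-702, miR-706, miR-708 and miR-720. Within pool A, 37.5% of the members were detected in all mice, against 40.3% of the pool's assays. For pool B, which holds most members, the shares were 18.8% and 22.8%.

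The counts of members detected per mouse overlapped between the strains, while those of the whole panel did not. In C57BL/6J 14, 16 and 14 members were detected, and in BTBR 14, 15 and 17, so the strains overlapped. Over the panel the counts were 305, 301 and 289 in C57BL/6J and 358, 404 and 347 in BTBR, without overlap. The difference between the members and the panel was not tested.

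Both arms of miR-675, which is cut from the imprinted growth-restraining RNA H19, were undetermined in all 6 samples. So were both miR-693 assays, from the span of Xpo5, the gene of the exporter of miRNA hairpins, both miR-711 assays, from the span of the collagen gene Col7a1, miR-708# and miR-712#. The other members counted as not detected were miR-670, miR-682, miR-683, miR-684, miR-686, miR-688, miR-691, miR-692, miR-694, miR-695, miR-697, miR-698, miR-704, miR-707, miR-710, miR-713, miR-715, miR-717, miR-718 and miR-719, all undetermined apart from 1 reading of miR-694 under 10 cycles, which the rule leaves out. An undetermined assay gives no level, and whether each of these assays works was not tested.

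**Figure D1:**
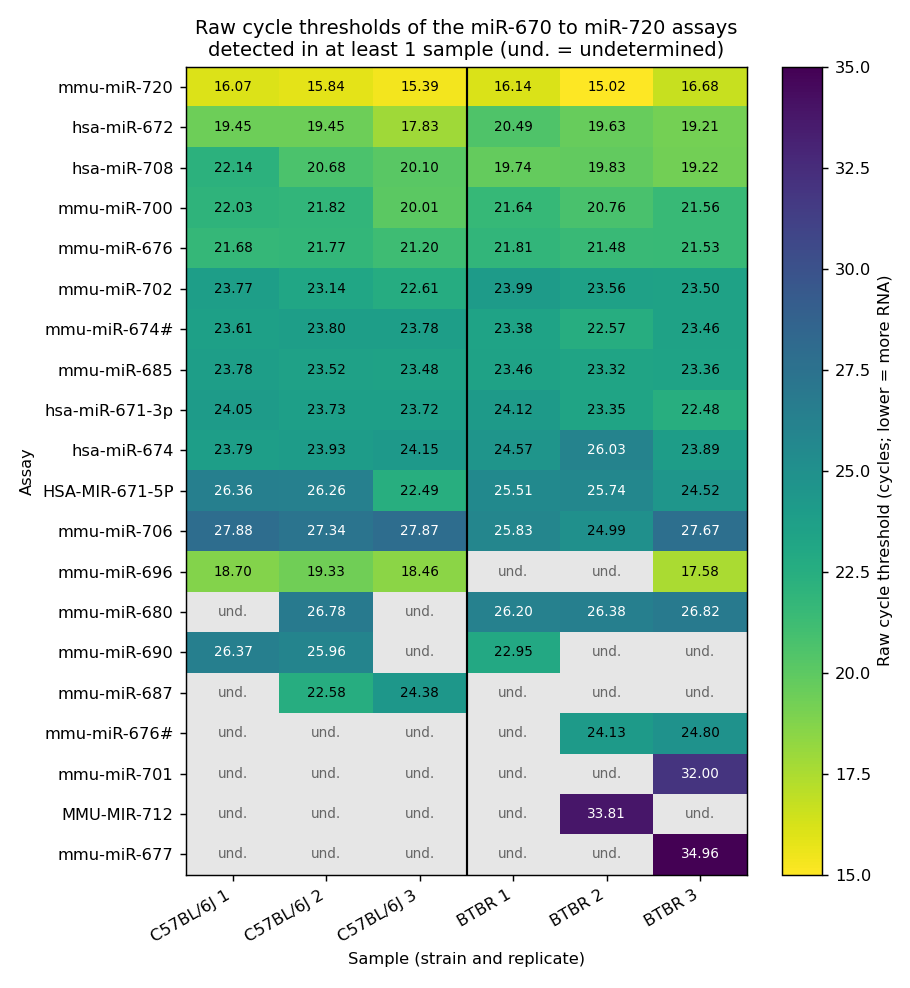
Raw cycle thresholds in cycles (rows, the 20 assays of the range detected in at least 1 sample; columns, the 6 mice), with "und." for undetermined and darker colour for a later threshold. The upper 12 rows are filled in every mouse, and each of the 8 below has at least 1 gap.

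Among the 8 members detected in some mice, none was present in all mice of 1 strain and absent from the other. Over the panel, 28 of 225 such assays appeared in every BTBR mouse but no control, and 3 in the reverse. Of the 8 members, 4 were detected in BTBR alone and 1 in C57BL/6J alone. Over the panel these counts were 114 and 28 of 225, so the members were near the panel's shares. miR-696 had an early threshold where it was detected, at 18.70, 19.33 and 18.46 cycles in C57BL/6J replicates 1 to 3 and 17.58 in BTBR replicate 3. In BTBR replicates 1 and 2 it was undetermined, so it appeared in 3 of 3 C57BL/6J and 1 of 3 BTBR mice, and the 1 BTBR value lay below all C57BL/6J values. miR-680, whose mature sequence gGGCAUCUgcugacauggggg (seed in capitals) has 3 RefSeq loci, went the other way, with 26.78 cycles in C57BL/6J replicate 2 alone and 26.20, 26.38 and 26.82 in the 3 BTBR mice. The 1 C57BL/6J value lay within the BTBR range.

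miR-690, from within the span of Fgf12, read 26.37 and 25.96 cycles in C57BL/6J replicates 1 and 2 and 22.95 in BTBR replicate 1. miR-687, from within the span of the tumour suppressor gene Rb1, read 22.58 and 24.38 cycles in C57BL/6J replicates 2 and 3 and was undetermined in every BTBR mouse. miR-676#, the other strand of miR-676, read 24.13 and 24.80 cycles in BTBR replicates 2 and 3 and nowhere else. In those mice it came 2.65 and 3.27 cycles after miR-676. The last 3 were single late readings in BTBR, of miR-712 at 33.81 cycles in replicate 2 and of miR-701 at 32 and miR-677 at 34.96 in replicate 3.

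The strain question was asked of the 12 members with a reading in every mouse, on 2 scales. SE below is the standard error of a change. The first scale was the authors' quantile-normalized table. Its normalization counted undetermined entries as values, and these were set to missing before the fits, so the tested values do not share a common distribution. For the 189 assays with 6 values, the sample medians were 20.9, 20.6 and 20.2 cycles in C57BL/6J and 21.7, 22.0 and 21.5 in BTBR. They were later in every BTBR mouse, and centring on sample medians below uses these medians. The second scale was the raw thresholds, with the mean of the 237 assays read in all mice subtracted sample by sample (the global mean). Assays needed 2 or more detected values per strain to enter a fit, and all that did were tested together with limma and Benjamini-Hochberg adjustment over all of them, at a threshold of 0.05. Changes are log2 values of BTBR minus C57BL/6J with 1 cycle taken as a 2-fold difference, so a negative change is less miRNA in BTBR.

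On the authors' normalized values 5 of the 12 members were lower in BTBR and 0 were higher (7 had an unadjusted p under 0.05, as had 113 of all 231 assays tested). The share called lower over all these assays was 35.5% and the share called higher 1.3% (36.8% in either direction), so the members' count is near that of the panel. Their median change was -1.51, beside -1.13 over all tested assays. When the authors' values were centred on sample medians, the panel's median change was 0.05 and 0 members were called, with 1 assay of the panel lower and 1 higher. The 5 were miR-702, miR-676, miR-674, miR-674# and miR-685. Centred on sample medians, their changes were -1.01, -0.45, -0.59, 0.15 and -0.37. With global mean centring 0 of the same 12 passed in limma (1 had an unadjusted p under 0.05), as did 0% of all 270 tested assays in either direction (71 had an unadjusted p under 0.05). The median change of the members there was -0.44, beside -0.40 over all assays.

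BTBR replicate 3 stood apart from its group in the normalized table. Over the 189 assays with 6 values its Pearson correlation was 0.945, 0.966 and 0.951 with the C57BL/6J samples and 0.938 and 0.918 with BTBR replicates 1 and 2, which are descriptions across assays. C57BL/6J replicate 3 was also closest to a mouse of the other strain, at 0.951 with BTBR replicate 3 against 0.922 and 0.944 with its own. When BTBR replicate 3 was left out, 6 members were called lower on the authors' values, miR-671-3p and miR-672 in addition to miR-702, miR-676, miR-674# and miR-685. Of the panel, 88 of 212 assays were then called lower and 13 higher. miR-674 then had 1 BTBR value and could not be tested. After global mean centring without it, 1 of the 12 members, miR-706, was called higher, beside 23 of 258 assays called higher and 32 lower over the panel. Leaving out C57BL/6J replicate 2 or 3, or BTBR replicate 1 or 2, left 0 members called on the authors' values, with 3, 0, 0 and 8 assays of the panel in that order. Leaving out C57BL/6J replicate 1 left 3 members, miR-702, miR-676 and miR-672, and 64 of 220 assays.

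miR-702 had the smallest adjusted p among the members. Its raw thresholds were 23.77, 23.14 and 22.61 cycles in C57BL/6J and 23.99, 23.56 and 23.50 in BTBR, so the strains overlapped by the first C57BL/6J mouse. In the normalized table they were 22.91, 22.47 and 21.92 against 24.70, 25.22 and 23.95, with every BTBR mouse later than every C57BL/6J mouse. That made 4.56-fold less miR-702 in BTBR, a log2 change of -2.19 with an SE of 0.46 (limma adjusted p = 0.0298). After global mean centring it was the 1 member whose strains did not overlap, at 0.924 ± 0.222 cycles after the global mean in C57BL/6J (SD, n = 3). The BTBR value was 1.83 ± 0.397 (SD, n = 3), a change of -0.91 ± 0.35 (SE) with a limma adjusted p of 0.172. For that scale, 23.7% of tested assays had all BTBR mice lower in RNA and 13% all higher.

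miR-676, from within the span of the ectodysplasin gene Eda, kept a narrow range in the raw table. It read 21.68, 21.77 and 21.20 cycles in C57BL/6J and 21.81, 21.48 and 21.53 in BTBR, within 0.609 cycles over all 6 mice, and the strains overlapped. The normalized values were 21.06, 21.01 and 20.43 against 22.50, 22.91 and 21.96, which no longer overlapped. On these it was 3.08-fold less in BTBR (log2 change -1.62 with an SE of 0.38, limma adjusted p = 0.0301). The raw change after global mean centring was -0.45 (SE 0.34, limma adjusted p = 0.392).

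miR-685 was the steadiest member of the raw table. Its thresholds were 23.78, 23.52 and 23.48 cycles in C57BL/6J and 23.46, 23.32 and 23.36 in BTBR, a range of 0.460 cycles in all. Every BTBR mouse came slightly before every C57BL/6J mouse, which in the raw table is more RNA in BTBR. The normalized values had the opposite order, 22.94, 22.86 and 22.47 cycles in C57BL/6J and 24.14, 24.996 and 23.79 in BTBR. That gave 2.92-fold less in BTBR (log2 change -1.55, SE 0.40, limma adjusted p = 0.0336), whereas global mean centring gave -0.18 (SE 0.33, limma adjusted p = 0.71) and no centring 0.21.

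The same turn of direction was seen for miR-674#. It read 23.61, 23.80 and 23.78 cycles in C57BL/6J and 23.38, 22.57 and 23.46 in BTBR in the raw table, where every BTBR mouse was earlier. In the normalized table it read 22.68, 23.08 and 22.94 against 23.97, 23.91 and 23.89, with every BTBR mouse later. The call was 2.03-fold less in BTBR (log2 change -1.02, SE 0.26, limma adjusted p = 0.0336), a value 0.11 above the median of the panel. Its sign was positive on the global mean scale (0.20, SE 0.36, limma adjusted p = 0.71) and also when the authors' values were centred on sample medians (0.15), but it was -0.055 on raw thresholds centred on the global median.

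miR-674, from the hairpin of miR-674#, had the same sign on both scales. Its raw thresholds were 23.79, 23.93 and 24.15 cycles in C57BL/6J and 24.57, 26.03 and 23.89 in BTBR, overlapping because of BTBR replicate 3. The authors' table gives 22.99, 23.31 and 23.34 against 25.17 and 24.56, and lists BTBR replicate 2 at 40, which was treated as missing. With 2 BTBR values the change was -1.65 (SE 0.37, limma adjusted p = 0.0301), and on the global mean scale, with 3, it was -1.27 (SE 0.78, limma adjusted p = 0.32) and -0.50 without BTBR replicate 2. This call did not hold in any of the 8 alternatives that could test it, among them the late reading kept (change -3.57) and 40 kept as a value (-6.70), where the adjusted p ran from 0.0544 to 0.351.

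The authors' values differ from the raw ones by a shift that has opposite signs in the strains. For the 10 members with 6 values in both tables, the median of normalized minus raw threshold was -0.72, -0.72 and -0.70 cycles in C57BL/6J and 0.63, 1.45 and 0.42 in BTBR. Over all 189 such assays it was -0.38, -0.66 and -0.63 against 0.44, 1.37 and 0.45. The shift was small for miR-720, the member with the earliest thresholds, where it ran from -0.29 to 0.52 cycles. For miR-671-5p it ran from -1.06 to 2.82.

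**Figure D2:**
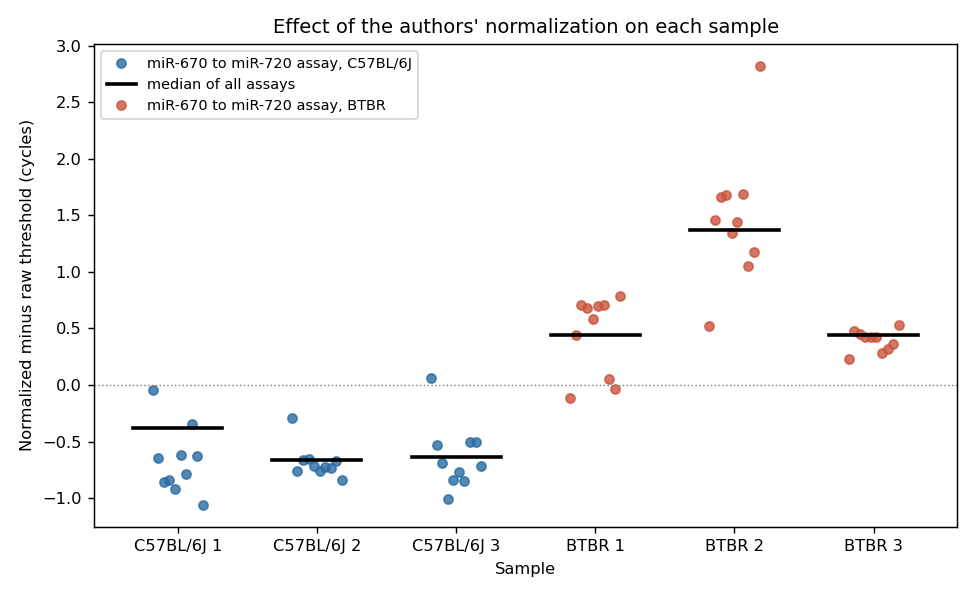
Normalized minus raw threshold in cycles for each of the 10 members with 6 values in both tables (points) and the median of all 189 such assays (black bars), by mouse. Nearly all C57BL/6J points lie below 0, with member medians of -0.72 to -0.70, and most BTBR points lie above, highest in replicate 2, where the member median is 1.45.

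In raw thresholds, 3 of the 12 members had strains that did not overlap, miR-674#, miR-685 and miR-708, each with more RNA in BTBR. Over the 237 assays detected in all mice the share without overlap was 32.5%, made of 14.3% with more and 18.1% with less RNA in BTBR. Among normalized values, 7 members did not overlap, each with less RNA in BTBR, namely miR-672, miR-674#, miR-674, miR-676, miR-685, miR-700 and miR-702. The share of tested assays with less RNA in every BTBR mouse was 54.5% there, and with more RNA 3.9%.

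**Figure D3:**
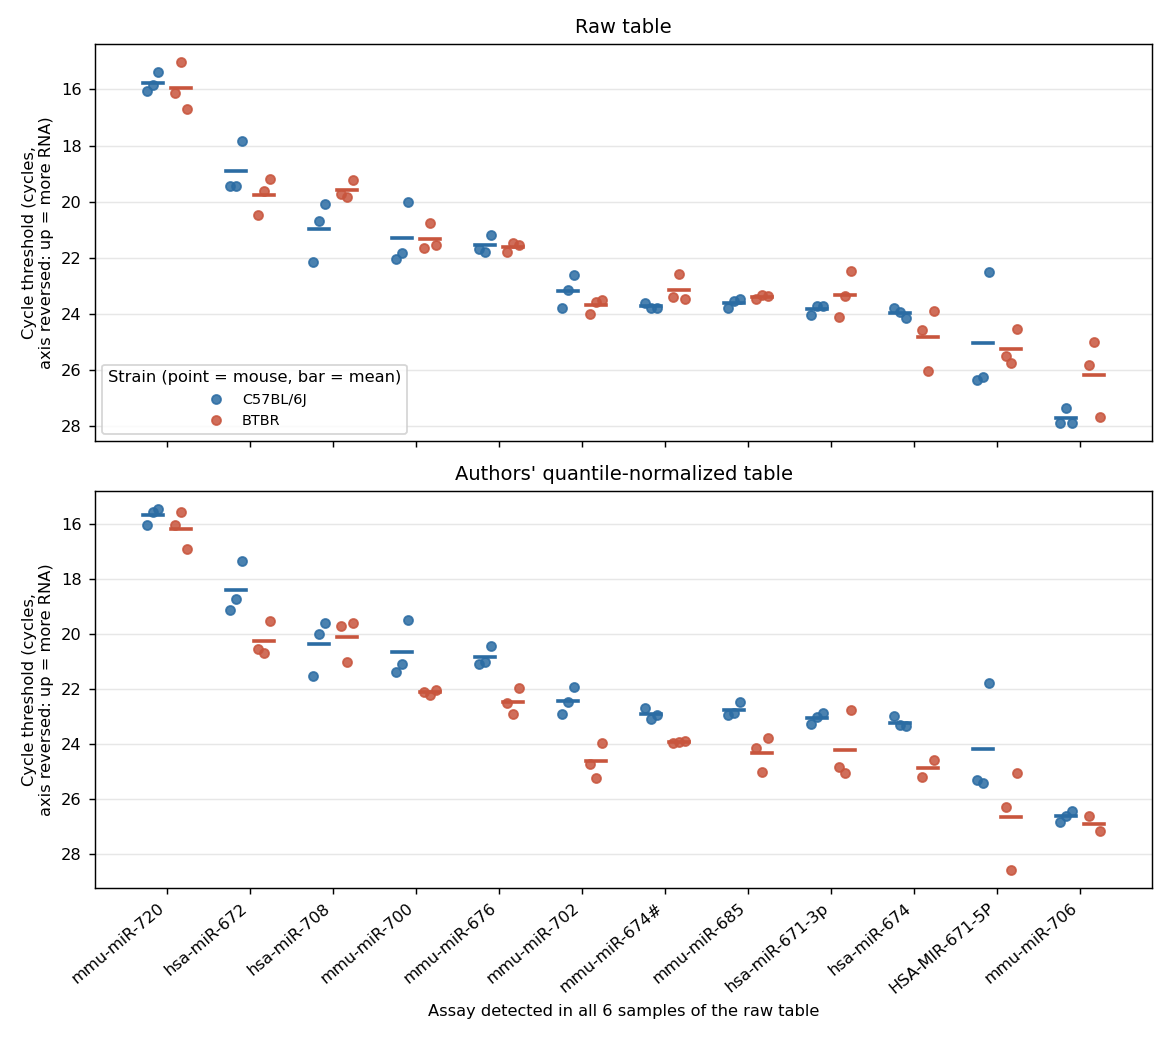
Cycle thresholds of the 12 members detected in all mice, raw (top) and as normalized by the authors (bottom), with reversed axes so that higher points are more RNA. Points are mice, bars strain means, and values at 40 are not drawn; the strains of miR-676 and miR-685 lie close together at the top and apart at the bottom.

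miR-708, from within the span of Tenm4, had the highest change of the 12 tested members on the authors' scale. Its raw thresholds were 22.14, 20.68 and 20.10 cycles in C57BL/6J and 19.74, 19.83 and 19.22 in BTBR, so that every BTBR mouse read earlier, by 1.37 cycles on average. In the normalized table the strains overlapped, at 21.50, 20.001 and 19.60 against 19.71, 21.01 and 19.58. The change was 0.27 (SE 0.66, limma adjusted p = 0.759), which is 1.39 above the panel's median, and -0.30 without C57BL/6J replicate 1, the mouse with the latest reading. With global mean centring it was 0.98 (SE 0.53, limma adjusted p = 0.283), or 1.97-fold more in BTBR, did not pass, and was 0.47 without C57BL/6J replicate 1.

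The seed of miR-708-5p is shared with miR-28a-5p, and both begin with the same 8 bases. The pair is shown because targets are usually predicted from the seed.
mmu-miR-708-5p: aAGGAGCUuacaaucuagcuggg
mmu-miR-28a-5p: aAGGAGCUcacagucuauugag
The hsa-miR-28 assay of the panel, whose name gives no arm, read 35.24, 27.53 and 26.92 cycles in C57BL/6J and 25.97, 24.54 and 25.79 in BTBR. As for miR-708, every BTBR mouse was earlier in the raw table and C57BL/6J replicate 1 was the latest of all. Its change was 4.07 (SE 2.07, limma adjusted p = 0.259) with global mean centring and 1.47 without C57BL/6J replicate 1. On the authors' values, which list C57BL/6J replicate 1 at 40, it was -0.29 (SE 0.43, limma adjusted p = 0.612). The panel's miR-28-3p and miR-28# assays were undetermined in all 6 samples. So were its assays of miR-377, whose 5p arm shares the seed of miR-672-5p, and of miR-1947, whose 3p arm shares that of miR-674-5p. The names of these miR-377 and miR-1947 assays give no arm, so they may not read the arms that share the seeds.

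miR-671 is known for directing the cleavage of the circular RNA Cdr1as in brain. The miR-671-5p assay read 26.36, 26.26 and 22.49 cycles in C57BL/6J and 25.51, 25.74 and 24.52 in BTBR, and C57BL/6J replicate 3 stood over 3 cycles before the other mice of its strain. The miR-671-3p assay read 24.05, 23.73 and 23.72 in C57BL/6J and 24.12, 23.35 and 22.48 in BTBR, without such a step in that mouse. Neither passed, and the sign of miR-671-3p turned with sample medians (0.0056), with changes of -2.47 (SE 1.32, limma adjusted p = 0.181) and -1.17 (0.66, limma adjusted p = 0.193) on the authors' values. Without C57BL/6J replicate 3 the change of miR-671-5p was -1.27, and without BTBR replicate 3 that of miR-671-3p was -1.89 (limma adjusted p = 0.0112, the lowest of 11 alternatives that ran up to 0.993). With global mean centring they were -0.61 (SE 1.04, limma adjusted p = 0.701) and 0.12 (0.54, limma adjusted p = 0.877), the latter -0.14 with the global median.

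A pair of assays of 1 hairpin can be compared within a mouse, which takes out any shift common to all assays of that sample, though not one between pools A and B. For miR-674# minus miR-674 the difference in raw threshold was -0.18, -0.13 and -0.36 cycles in C57BL/6J and -1.19, -3.46 and -0.43 in BTBR. Every BTBR mouse thus had less miR-674 relative to miR-674# than every C57BL/6J mouse, with means of -0.22 ± 0.12 and -1.69 ± 1.58 cycles (SD, n = 3 each). The two-sided exact permutation test gave p = 0.1, the smallest that 3 against 3 mice allow, and 0.2 adjusted over the 2 hairpins that could be compared. For miR-671-3p minus miR-671-5p the difference was -2.32, -2.53 and 1.22 in C57BL/6J and -1.39, -2.39 and -2.03 in BTBR, with overlap (exact permutation p = 0.9, adjusted 0.9). The 2 assays of each hairpin belong to different pools.

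**Figure D4:**
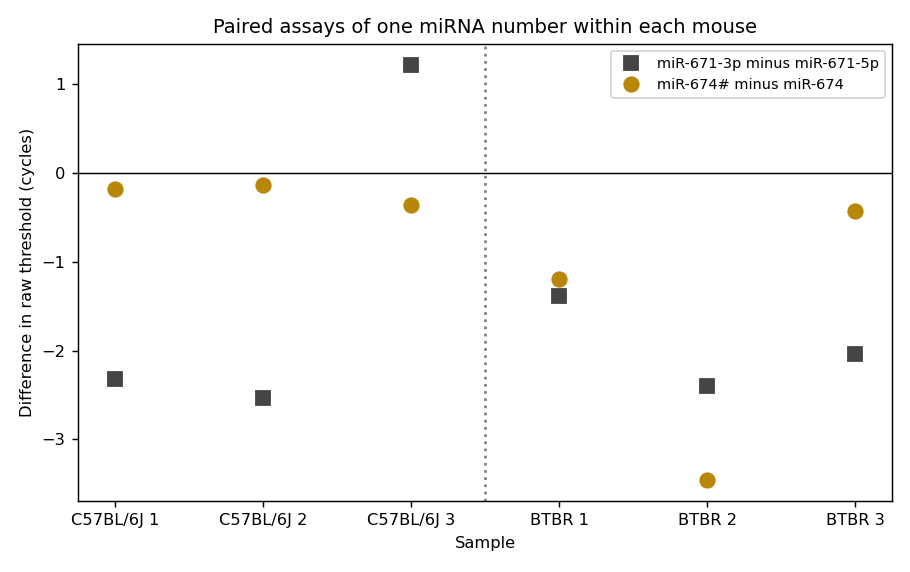
Difference in raw threshold, in cycles, between the paired assays of miR-674 and of miR-671 in each mouse (left, C57BL/6J; right, BTBR). For miR-674 the lowest BTBR value is -3.46, all BTBR values lie under all C57BL/6J values, and for miR-671 C57BL/6J replicate 3 is at 1.22 while the other mice lie between -2.53 and -1.39.

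miR-672, from within the span of Nexmif, and miR-700, from that of Rcan3, did not pass on the authors' values. miR-672 read 19.45, 19.45 and 17.83 cycles raw in C57BL/6J and 20.49, 19.63 and 19.21 in BTBR, with overlap. Normalized, it read 19.10, 18.72 and 17.32 against 20.54, 20.68 and 19.52, without overlap (log2 change -1.87, SE 0.59, limma adjusted p = 0.0532). The globally centred change was -1.26 (SE 0.55, limma adjusted p = 0.195). The range over 11 alternatives on the authors' values was an adjusted p of 0.0338 to 0.283, with 4 under the threshold.

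miR-700 read 22.03, 21.82 and 20.01 cycles raw in C57BL/6J and 21.64, 20.76 and 21.56 in BTBR, and 21.39, 21.06 and 19.48 against 22.08, 22.22 and 22.04 normalized. C57BL/6J replicate 3 gave the earliest reading on both scales, as it did for miR-672. The changes were -1.47 (SE 0.55, limma adjusted p = 0.0761) and -0.43 (0.48, limma adjusted p = 0.578), and the latter was 0.08 without that mouse.

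miR-706, from within the span of Wnk1, had the latest mean threshold of the 12. It read 27.88, 27.34 and 27.87 cycles raw in C57BL/6J and 25.83, 24.99 and 27.67 in BTBR, so that BTBR replicates 1 and 2 were earlier and replicate 3 was among the controls. The globally centred change was 1.14 (SE 0.62, limma adjusted p = 0.283). Without BTBR replicate 3 it was 1.75 with an adjusted p of 0.0423, the lowest of 14 alternatives, which ran up to 0.565. The authors' table lists that mouse at 40, and the change over the rest was -0.26 (SE 0.36, limma adjusted p = 0.588) but 1.03 with sample medians. The first 16 bases of miR-706, as DNA agagaaaccctgtctc on either strand, occurred in 28 of 32544 promoter windows of 300 bases (0.0860%). The full sequence of miR-706 occurred in 2 windows (0.00615%). The first 16 bases of miR-680 and miR-690 occurred in 1 window each, and those of the other 42 mature sequences of the range in none.

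miR-720 had the earliest thresholds of the 12 in every mouse, at 16.07, 15.84 and 15.39 cycles raw in C57BL/6J and 16.14, 15.02 and 16.68 in BTBR. The strains overlapped on both scales, with normalized values of 16.03, 15.55 and 15.45 against 16.03, 15.55 and 16.91. Its changes were -0.49 (SE 0.44, limma adjusted p = 0.404) on the authors' values and -0.58 (0.37, limma adjusted p = 0.337) with global mean centring, and 0.69 when the authors' values were centred on sample medians. A threshold of 1 assay cannot be set against that of another as a level, since assays differ in efficiency.

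**Figure D5:**
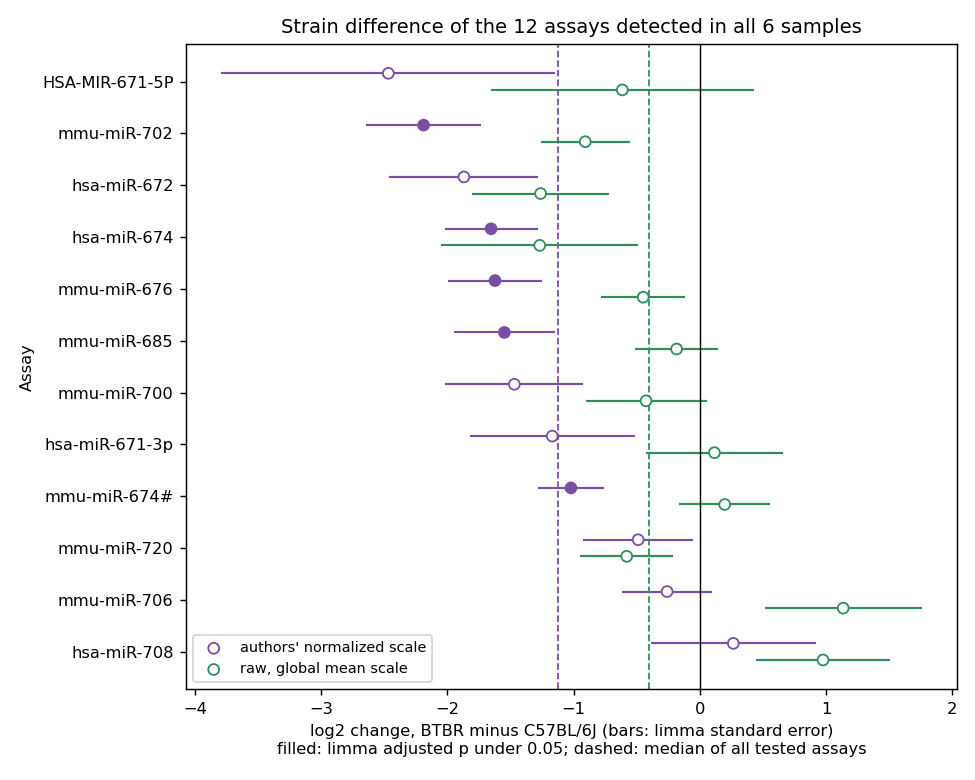
Log2 change of BTBR minus C57BL/6J for the 12 members on the authors' normalized scale (purple) and on the raw global mean scale (green), with limma SEs. Filled points passed an adjusted p of 0.05, which 5 did on the first scale and 0 on the second, and dashed lines mark the panel medians of -1.13 and -0.40.

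The authors' deposited table of fold changes holds 15 of the 48 members, the 12 above and miR-680, miR-690 and miR-696. Of these, the authors' deposited table gives 13 a ratio of BTBR to C57BL/6J under 1 and the other 2 a ratio over 1, and 0 an adjusted p under 0.05 (4 an unadjusted p under 0.05), against 48 of all 306 assays with an adjusted p under 0.05. Over those 306, the authors' deposited table has 217 ratios under 1, 89 over 1 and 112 assays with an unadjusted p under 0.05. Among the members, the smallest adjusted p in the authors' deposited table was shared by miR-674# (ratio 0.493), miR-702 (0.219) and miR-676 (0.325), at 0.0596. For miR-696 the authors' deposited table gives a ratio of 4.82e-05 and for miR-680 one of 10.5, each with values of 40 averaged as thresholds.

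As a check of the tissue, 7 assays of neuronal miRNAs (miR-9, miR-124, miR-128 and miR-138) were each detected in at least 1 mouse, but only 3 of them, miR-9#, miR-128a and miR-124a, in all. The mean of those 3 ran from 16.2 to 19.7 cycles per mouse, latest in C57BL/6J replicate 1. The neuronal assays did not move one way. miR-124a read 31.40, 24.83 and 24.44 cycles in C57BL/6J and 20.78, 19.79 and 23.29 in BTBR, with more RNA in every BTBR mouse. miR-128a ran the other way without overlap, at 13.89, 13.99 and 13.81 against 14.67, 14.91 and 14.47. Among the rest, miR-124# was read in all C57BL/6J mice (22.73, 21.70 and 13.68) and no BTBR mouse, and miR-9 in BTBR replicates 1 and 2 alone. miR-138 read 10.62, 10.76 and 9.60 cycles in C57BL/6J and 11.57, 10.91 and 11.05 in BTBR, later in every BTBR mouse. The rule leaves out its C57BL/6J replicate 3 reading, which is under 10 cycles. It also leaves out the miR-138# readings of C57BL/6J replicates 2 and 3 (7.805 and 6.385). For oligodendrocytes 4 of 6 assays were detected in all mice, for choroid plexus 2 of 9, for endothelium 1 of 2 and for microglia and leukocytes 0 of 4. The oligodendrocyte miR-338 read 26.76, 25.25 and 26.16 cycles in C57BL/6J and 27.61, 27.74 and 27.56 in BTBR, with less RNA in every BTBR mouse. The strains of miR-219, miR-219-2-3p and miR-338-3p overlapped, and miR-338-5p was read late, in BTBR replicates 1 and 2 alone. The microglia and leukocyte assays detected by mouse were 3, 2 and 0 in C57BL/6J and 2, 2 and 3 in BTBR. Among them, miR-142-3p and 1 miR-223 assay were each read in 5 mice, all but C57BL/6J replicate 3. Per mouse, 2, 3 and 3 choroid plexus assays were detected in C57BL/6J and 5, 6 and 5 in BTBR, where more assays of the whole panel were detected too. Of this list, miR-34b-3p was read in every BTBR mouse and no control, while miR-34b, miR-34b-5p and miR-211 were undetermined in all mice. Both miR-204 and miR-204# were read in all mice, and their strains overlapped. For miR-204 the values were 16.81, 17.88 and 17.17 cycles in C57BL/6J and 17.79, 17.12 and 16.62 in BTBR. The endothelial miR-126# was read in 3 BTBR mice and 1 control. miR-126 itself was read in all mice, at 17.94, 19.07 and 17.82 cycles in C57BL/6J and 16.56, 16.47 and 18.06 in BTBR, with overlap. Red blood cell miR-451 read 21.1 to 21.4 cycles in C57BL/6J and 19.7 to 20.7 in BTBR, miR-486 was detected in BTBR alone and miR-144 in no mouse. The part of these differences in the members' values was not tested.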

How the data were processed

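RNA was purified on columns, 100 ng per sample was reverse transcribed and pre-amplified, and each sample was run on the panel, as the labels' protocols state. The authors deposited raw cycle thresholds, quantile-normalized thresholds of 306 assays (per the file headers) and a comparison table. It holds, per the file headers, a ratio of BTBR to control, a threshold difference (minus the log2 ratio), a test statistic (a score) and p-values. Setting raw values under 10 to 40, keeping assays detected in 3 or more samples (340 assays) and applying quantile normalization with 40 as a value, under the closest of 3 rules for ties, gave the deposited values under 40 within 3.33e-09 cycles, and no kept value exceeds 29.19. The files report no counting depth, so the 3 samples of each strain and the single value per assay set the precision. The labels do not say outright that replicates are separate animals, so p-values measure the spread between these samples.

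Values were multiplied by -1, 40 was set to missing, and limma 3.58.1 in R 4.3.3 was fitted with strain as the single term, after a check on simulated data. Paired assays were compared with scipy 1.17.1. Values are given in every sample for members detected in all 6 samples, for those tested and for those in some samples, and the others are named. Members, lists and tests were chosen with earlier results of these data known. Alternatives were 40 kept, sample medians, 3 values per strain, late readings, other raw scalings and detection limits, each mouse left out and the replicate block.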

Additional observations from a re-analysis of the deposited data

How the results depend on the processing

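The count of 5 members called on the authors' values stayed within 1.5 times under 3 alternatives (5 with at least 3 values per strain, 4 with 40 kept, 4 with late readings kept). It was 0 with the values centred on sample medians, where 1 assay of the panel was lower and 1 higher, and 0 to 6 when each mouse was left out in turn. The correlation of same-numbered deviations was 0.083, 0.421 and -0.001, and 3 of 6 samples correlated best with their own number. These are descriptions of few samples and do not settle whether replicate numbers pair the mice. With the replicate block 3 members were called, against 32 of the panel in place of 85. On the global mean scale the count of 0 ranged from 0 to 1 with each mouse left out (1 without BTBR replicate 3, where 55 of 258 assays of the panel were called) and was 0 under the other 8 alternatives. The count of 12 members detected in all mice was the same with thresholds of 30 and above as undetermined and with values under 10 as detected. Signs turned with sample medians for miR-720 (0.69), miR-706 (1.03), miR-674# (0.15) and miR-671-3p (0.0056), and miR-708 ran from -0.30 to 0.72 with 1 mouse left out, negative without C57BL/6J replicate 1. On raw thresholds miR-685 was at 0.21 with no centring and 0.024 with late values as missing, miR-674# at -0.055 and miR-671-3p at -0.14 with the global median. With 1 mouse left out, miR-700 ran from -0.72 to 0.084 and miR-671-5p from -1.23 to 0.53, both positive without C57BL/6J replicate 3, and miR-671-3p from -0.44 (without BTBR replicate 3) to 0.47. The cause was not tested.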

Other observations

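Among the 48 assays, 1 reading was earlier than 10 cycles, that of miR-694 at 7.01 cycles in C57BL/6J replicate 3, and the other 5 mice were undetermined there. On the authors' scale, 3 member values with a raw reading stand at 40, namely miR-680 in BTBR replicate 2 (26.38 cycles raw), miR-674 in BTBR replicate 2 (26.03) and miR-706 in BTBR replicate 3 (27.67). On the rebuilt quantile scale they would read 31.36, 30.62 and 30.83 cycles. The median within-strain SD of the 12 members with 6 raw values was 0.328 cycles in C57BL/6J and 0.571 in BTBR, beside 0.516 and 0.524 over the panel's 237 such assays.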
